A study of Rattus norvegicus with 20 samples.

Results

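The interaction of antibiotics with short-chain fatty acids was measured in the nucleus accumbens of cocaine self-administering male Sprague-Dawley rats. It asks whether the antibiotic effect on a gene differs between rats that drank fatty acids and rats that did not. On the log2 scale it is (Abx_SCFA minus SCFA) minus (Abx minus H2O), so it uses all 20 of the 20 libraries of the series. H2O (n = 5) is the water control, Abx (n = 4) received antibiotics to deplete the microbiome, SCFA (n = 6) received short-chain fatty acids, and Abx_SCFA (n = 5) received both. All 4 groups were wild-type rats of the same strain, 7 to 9 weeks old by the labels, housed 2 to a cage with food and their drink freely available. The labels do not say which rats shared a cage, so p-values measure the spread between these libraries.

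Gut bacteria ferment fibre into the short-chain fatty acids acetate, propionate and butyrate, which reach the blood, and butyrate inhibits histone deacetylases. The nucleus accumbens is a ventral part of the striatum that takes part in reward, and most of its neurons are GABAergic medium spiny neurons carrying either the dopamine receptor Drd1 or Drd2. A positive interaction means that the antibiotic difference was more positive with fatty acids than without them, and a negative one the reverse. The value is a difference of 2 differences, so it carries the spread of 4 groups and its standard error (SE) is larger than that of either comparison.

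PolyA RNA was sequenced to between 17525358 and 25731636 counts per library over 17296 gene symbols, of which 12846 passed a filter on low counts and were tested. The rats of H2O and Abx carry numbers in the 2-hundred and 3-hundred series, and those of SCFA and Abx_SCFA in the 4-hundred series. An additive difference between the 4-hundred series and the others cancels in the interaction, since each antibiotic comparison lies on 1 side of that divide. One between the 2-hundred and 3-hundred series cancels only in part, because 2 of 5 H2O and 2 of 4 Abx rats are of the 2-hundred series. Medium spiny neuron genes were high in every group (Penk, the enkephalin precursor, averaged 1130 CPM, counts scaled to library size). The cortical excitatory neuron genes varied most between libraries, and those values are given with the gene groups below. Because tissue was sequenced whole, fewer cells of a type and less RNA per cell cannot be told apart.

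No gene passed an adjusted p of 0.05 for the interaction in edgeR's quasi-likelihood test (0 of 12846 called, 0%), and the smallest adjusted p was 0.622. At an unadjusted p below 0.05 there were 1008 genes (7.85%), of which 364 were positive (2.83%) and 644 negative (5.01%). DESeq2 also called 0 genes, with 1112 at an unadjusted p below 0.05, and limma-voom called 0, with 900. The median interaction over all tested genes was 0.01 on the log2 scale, and 51.8% of the values were positive. That share is the background for each count of positive or negative list members below. Members of a list are not independent results. The median SE of a gene was 0.145, against 0.108 for Abx minus H2O and 0.0972 for Abx_SCFA minus SCFA. Neither antibiotic comparison called a gene by itself: Abx minus H2O had a smallest adjusted p of 0.563 in edgeR with 1129 genes at an unadjusted p below 0.05, and Abx_SCFA minus SCFA 0.285 with 871.

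The antibiotic comparisons without and with fatty acids share no library. Their log2 values had opposite signs in 6566 of the 12846 genes (51.1%), and across genes they had a Pearson r of -0.303 and a Spearman rho of -0.091. These describe genes, which are not independent replicates. The antibiotic difference was larger in size without fatty acids in 7191 genes (56%). Of the 1008 genes at an unadjusted p below 0.05 for the interaction, 972 (96.4%) had opposite signs in the 2 comparisons, which follows in part from choosing them by their difference. Among these, 633 were higher under antibiotics without fatty acids and lower with them, and 339 were the reverse. Of the 1008, 20 had an unadjusted p below 0.05 in both comparisons, 365 in Abx minus H2O alone, 281 in Abx_SCFA minus SCFA alone, and 342 in neither. Over all 12846 genes these numbers were 56, 1073, 815 and 10902. The split of the 1008 also follows in part from choosing them by their difference.

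**Figure D1:**
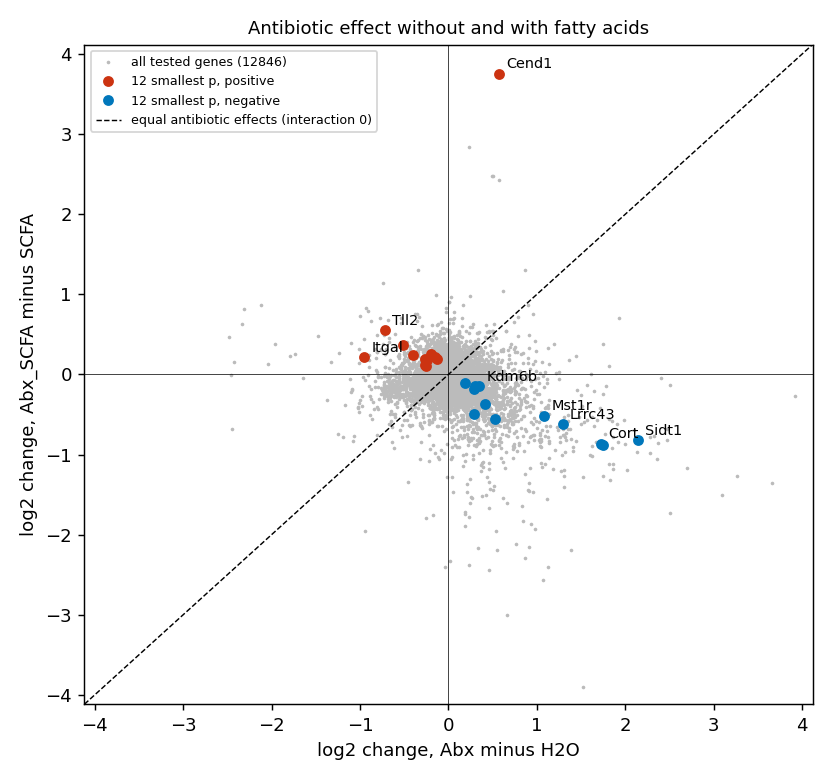
Log2 change under antibiotics without fatty acids (x axis) and with them (y axis) for each of the 12846 tested genes (grey). Red and blue mark the 12 genes of smallest interaction p in each direction with a mean of at least 1 CPM and no provisional symbol. Distance from the dashed line is the interaction; Cend1 lies at the top, and Sidt1 and Cort, with Grem1 beside Cort, at the lower right.

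The genes with the smallest p were taken as the 12 in each direction with a mean of at least 1 CPM and no provisional symbol. The gene with the smallest interaction p of all (0.000109 in edgeR) fell outside these rules. None of the 24 passed (edgeR adjusted p = 0.622 for each), and the values below describe them. All 24 kept an unadjusted p below 0.05 when each of the 20 libraries was left out in turn. Groups without overlap are named for some genes here and in the gene lists, not for every gene that has them. The share of all genes that separate so was not counted. Such separation follows in part from choosing genes by a small p.

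Among the genes with a positive interaction, Fut8, the fucosyltransferase that adds core fucose to N-glycans, stood at 48.3, 53.6, 48.6, 56.1 and 48.6 CPM in H2O and at 43.4, 46.2, 39.1 and 41.5 in Abx. It ran from 39.5 to 48.5 in SCFA, with a median of 43.1, and stood at 49.6, 43.8, 44.7, 51.9 and 45.8 in Abx_SCFA. Every Abx library lay below every H2O library, whereas Abx_SCFA overlapped SCFA. The interaction was 0.38 ± 0.101 (SE), made of -0.26 without fatty acids and 0.12 with them. Ddx28, a mitochondrial RNA helicase, had the same layout: 9.99 to 11.1 CPM in Abx lay below 11.3 to 13 in H2O, and 11.6 to 15.2 in Abx_SCFA overlapped 9.6 to 12.4 in SCFA. Its interaction was 0.45 ± 0.121. Tnfsf12, which encodes the cytokine TWEAK, separated on the other side. All 5 Abx_SCFA libraries (14.6, 14.7, 15.5, 14.2 and 15.3 CPM) lay above the 6 SCFA libraries (11.8 to 14, median 12.9), while Abx (13.3, 11.4, 9.8 and 10.5) overlapped H2O (11.5 to 15.4).

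Itgal and Lsp1 are leukocyte genes, an integrin chain and an actin-binding protein. Itgal stood at 10.1, 4.58, 5.57, 4.78 and 6.85 CPM in H2O and at 2.8, 2.46, 3.59 and 4.32 in Abx, without overlap. With fatty acids the groups overlapped, at 2.89 to 6.07 in SCFA and 3.75 to 5.65 in Abx_SCFA, and the interaction was 1.16 ± 0.328. Lsp1 gave 0.88 ± 0.251, with Abx again below H2O in every library. Tll2, a metalloprotease of the tolloid family, had the smallest p of the 12 positive genes, at a low level. Its 0.627 to 0.908 CPM in Abx overlapped 0.856 to 1.62 in H2O, and 1.33 to 1.64 in Abx_SCFA lay above 0.721 to 1.29 in SCFA. Further positive genes were Gskip (0.36), Abhd17c (0.37), Bcl7b (0.32) and Mb21d2 (0.42), each between 31.5 and 62.7 CPM on average. In Abhd17c every Abx_SCFA library lay above every SCFA library.

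Cend1, a neuronal gene of cell cycle exit, had the largest positive value of the 24, 3.19 ± 0.909, and its libraries split in 2. Its counts were 4 to 14 in the 6 SCFA libraries, 7 in H2O replicate 4 and 8 in Abx_SCFA replicate 5, and 88 to 240 in the other 12. The same libraries were low for RragB (interaction 1.85 ± 0.726) and for Tsen34 and Tsen34l1, which can share reads (1.98 ± 0.906 for Tsen34), and high for Dgcr2 (-0.89 ± 0.447). With H2O replicate 4 and Abx_SCFA replicate 5 left out, libraries picked for these counts, edgeR called Cend1 alone (adjusted p = 2.28e-06). This split follows single libraries as well as groups, and its part in the interaction was not tested.

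Among the 12 genes with a negative interaction, Kdm6b, a histone H3 lysine 27 demethylase, had the smallest p. It stood at 50, 55.6, 52.3, 49.5 and 62.3 CPM in H2O and at 74.5, 62.2, 64.7 and 72.9 in Abx. In SCFA it ran from 60.7 to 77 with a median of 69.2, and in Abx_SCFA it stood at 66.5, 71.9, 59.8, 50.5 and 64. Abx met H2O at a single library, H2O replicate 5, and the groups with fatty acids overlapped. The interaction was -0.50 ± 0.132, from 0.35 without fatty acids and -0.15 with them. Rasa2, a GTPase-activating protein for Ras, was a small and tight case: 21.9 to 24.3 CPM in Abx lay above 18.4 to 21.3 in H2O, and the interaction was -0.29 ± 0.0826. Slc4a8, a sodium-driven bicarbonate exchanger of neurons, lay at 26.9 to 30.8 CPM in Abx, above 18.7 to 23.9 in H2O. Its SCFA libraries ran from 18.9 to 44.9, and the interaction was -0.77 ± 0.231.

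4 further genes were low in H2O and spread widely in Abx and SCFA. Cort, the precursor of the interneuron peptide cortistatin, stood at 0.68, 0.252, 0.661, 0.496 and 0.615 CPM in H2O and at 2.84, 0.804, 1.37 and 2.1 in Abx. The SCFA libraries spanned 0.427 to 4.43 and the Abx_SCFA libraries 0.915 to 1.33, for an interaction of -2.59 ± 0.728. Every Abx library lay above every H2O library, and the groups with fatty acids overlapped. Sidt1 (-2.96 ± 0.88), Grem1, a secreted BMP antagonist (-2.63 ± 0.789), and Mst1r, a receptor tyrosine kinase (-1.60 ± 0.438), overlapped in both comparisons. Osbpl6 (-0.45), Fgd6 (-0.47), MGC116197 (-0.78), Lrrc43 (-1.91) and Ccdc33 (-1.09) complete the negative genes. In Osbpl6 and MGC116197 every Abx library lay above every H2O library.

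**Figure D2:**
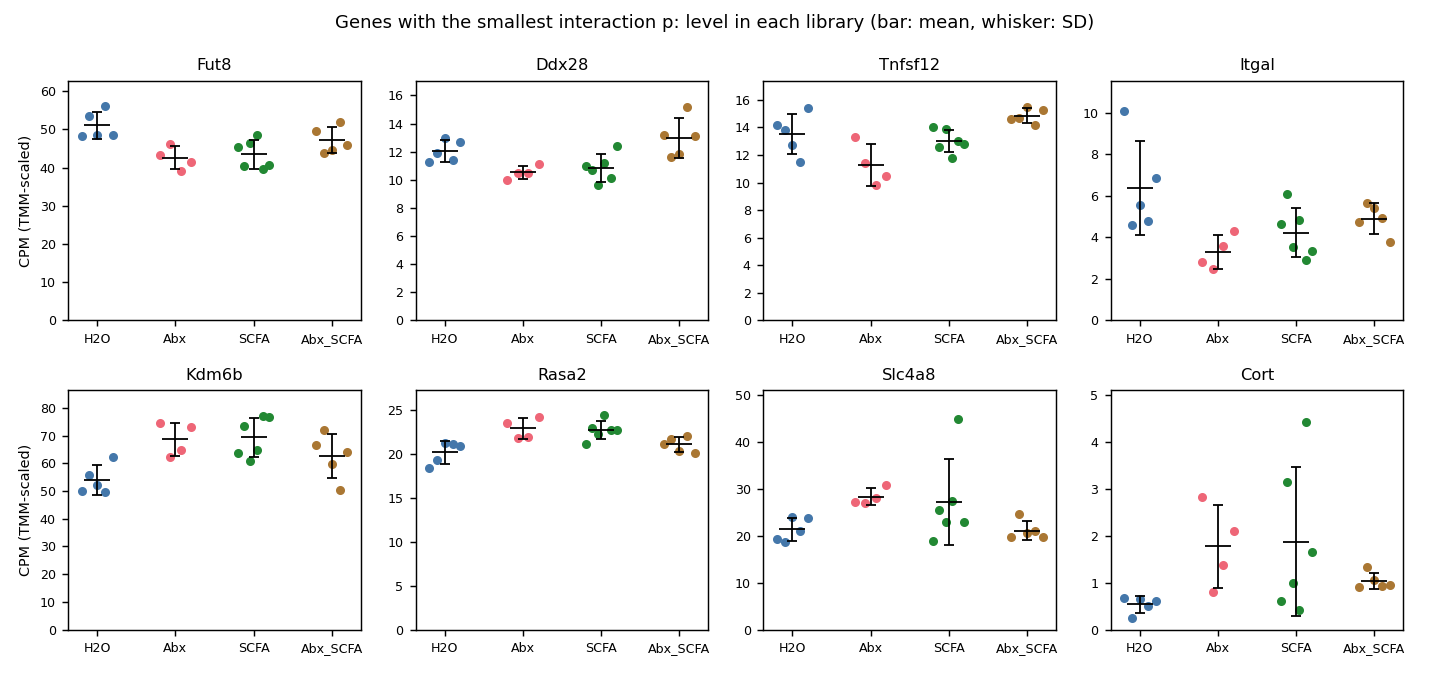
Level in CPM (y axis, from 0) of 4 genes with a positive interaction (top) and 4 with a negative one (bottom) in each library, by group; the bar is the mean and the whisker the SD. In Fut8, Ddx28 and Itgal all Abx points lie below the H2O points, and in Rasa2, Slc4a8 and Cort all lie above them.

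The cortical excitatory neuron genes differed most between libraries. Their score, the mean log2 CPM of the 14 tested markers, was 1.71, 2.78, 1.49, 2.45 and 4.42 in H2O and 5.21, 3.09, 4.12 and 4.84 in Abx. In SCFA it was 3.24, 5.63, 4.07, 3.51, 6.39 and 5.01, and in Abx_SCFA 3.65, 4.36, 3.96, 4.89 and 4.42. H2O replicate 5 stood apart from the other H2O libraries, and SCFA replicates 2 and 5 were the highest of all. All 14 members had a negative interaction (median -2.57, from 1.65 without fatty acids and -0.84 with them), 9 of them (64.3%, against 7.85% of all genes) at an unadjusted p below 0.05, and 0 were called. Without SCFA replicate 5 that number was 3, and without SCFA replicates 2 and 5 it was 2, with a median of -1.36. Other omissions went the other way: the median was -3.76 without H2O replicate 5. It was -2.54 without H2O replicate 5 and SCFA replicates 2 and 5, a set chosen after seeing the data. Slc17a7, which loads glutamate into synaptic vesicles of cortical neurons, stood at 3.29, 32.8, 3.09, 14.6 and 252 CPM in H2O and at 506, 43.7, 183 and 458 in Abx. The SCFA libraries spanned 74 to 1060 and the Abx_SCFA libraries 132 to 339. The groups overlapped in both comparisons, and the interaction was -3.26 ± 1.44.

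The cortical score comes from the same counts, and its own group means gave an interaction of -2.14. Fitting it can therefore take interaction out of any gene that varies with it, whatever the cause. This holds for every fit with the score here and below, and whether cortical tissue accounts for the changes was not tested. When the cortical score entered the model, the genes at an unadjusted p below 0.05 numbered 448, of which 152 were among the 1008. Of the 12 negative genes above, 5 then lay at under 50% of their value (Cort to -0.71, Grem1 to -0.52, Sidt1 to -0.69, Osbpl6 to -0.18 and Mst1r to -0.78). Of the 12 positive genes 0 did. Tnfsf12 stood at 0.51 and Ddx28 at 0.47, while Fut8 stood at 0.28, Gskip at 0.27, Bcl7b at 0.23 and Mb21d2 at 0.23, where its unadjusted p in edgeR was 0.0658. Without SCFA replicates 2 and 5, 498 genes were at an unadjusted p below 0.05.

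**Figure D3:**
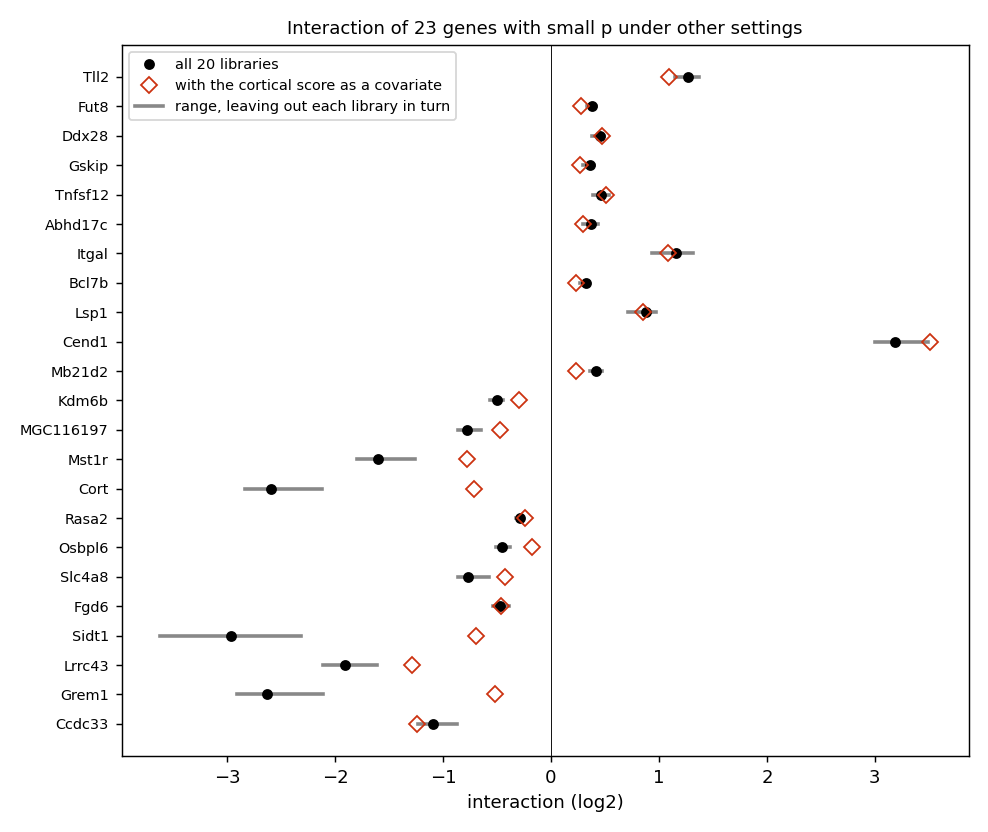
Interaction (log2, x axis) of 23 of the 24 genes of smallest p: all 20 libraries (black), the range over leaving out each library in turn (grey line) and the fit that includes the cortical score (red diamond). The diamonds of Cort, Grem1 and Sidt1 lie far from their black points, and that of Ddx28 lies close to its own.

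Medium spiny neuron genes lay on the other side. Of the 26 tested genes of the general list, 25 had a positive interaction (median 0.26), against 51.8% of all genes. At an unadjusted p below 0.05 were 2 positive and 1 negative (11.5%, against 7.85% of all genes), and 0 were called. The median was -0.04 in Abx minus H2O and 0.27 in Abx_SCFA minus SCFA. Drd1, the D1 dopamine receptor, stood at 411, 511, 379, 411 and 321 CPM in H2O and at 333, 364, 462 and 337 in Abx. With fatty acids it spanned 171 to 411 in SCFA and 342 to 437 in Abx_SCFA. All of these ranges overlapped, and the interaction was 0.52 ± 0.256. The D1 and D2 lists were positive in 8 of 11 members each (medians 0.44 and 0.39), and Rxfp1, a relaxin receptor of the D1 list, gave -2.52 ± 0.782. Drd2 gave 0.39 ± 0.248, the opioid precursor genes Pdyn and Penk gave 0.44 ± 0.266 and 0.49 ± 0.294, and the olfactory-type G protein gene Gnal gave 0.51 ± 0.238. Cnr1, the cannabinoid receptor, was the 1 member of the general list with a negative value, -0.84 ± 0.327. With the cortical score in the model Cnr1 stood at -0.02 and Rxfp1 at -0.93. The cortical score was highest in the SCFA libraries in which the medium spiny neuron score was lowest (7.78 and 7.8 in replicates 2 and 5, against 8.26 to 8.63 in the other SCFA libraries). When the cortical score entered the model the list's median was 0, and 13 of 26 members were positive.

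Myelin genes had the same sign throughout. All 25 tested members were positive, against 51.8% of all genes (median 0.44, from -0.66 without fatty acids and -0.19 with them). At an unadjusted p below 0.05 were 0 of them (0%, against 7.85% of all genes). The median was 0.28 without Abx replicate 3, and 0.18 with 23 of 25 positive when the cortical score entered the model. Mbp, myelin basic protein, stood at 6940, 6380, 7990, 9270 and 10500 CPM in H2O and at 5690, 5240, 2880 and 6080 in Abx, without overlap. The SCFA libraries spanned 2910 to 11400 and the Abx_SCFA libraries 5330 to 9670, so those groups overlapped, and the interaction was 0.63 ± 0.394. Of the precursor genes, 9 of 11 were positive (median 0.13), and Olig2, a lineage transcription factor, gave 0.51 ± 0.247. Astrocyte genes had a median of 0.06, and Gfap gave 0.14 ± 0.226.

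Microglial genes were positive in 16 of 18 (median 0.19, and 0.10 without SCFA replicate 5). The member at an unadjusted p below 0.05 (5.56%, against 7.85% of all genes) was Cd74, the invariant chain of MHC class II (2.02 ± 0.7). Cd74 stood at 88.3 and 85 CPM in H2O replicates 1 and 5, and at 20.2, 39.5 and 18.2 in the other H2O libraries. It ran from 7.78 to 23.7 in Abx, and its interaction was 1.72 without H2O replicate 1. Vascular genes were positive in 22 of 27 (median 0.18), with Cldn5, the tight junction protein of endothelium, at 0.39 ± 0.145 and the channel subunit Abcc9 at 0.38 ± 0.177. Red cell genes were positive in 5 of 5 (median 0.67), all above an unadjusted p of 0.05, and their median was 0.33 without H2O replicate 1. Ependymal and motile cilia genes were negative in 8 of 9 (median -1.06), 3 of them at an unadjusted p below 0.05 (33.3%, against 7.85% of all genes). Ccdc153, one of these, stood at 8.47 CPM in Abx replicate 2 and at 1.74 to 2.68 in the other Abx libraries. Without Abx replicate 2 the ependymal median was -0.43.

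**Figure D4:**
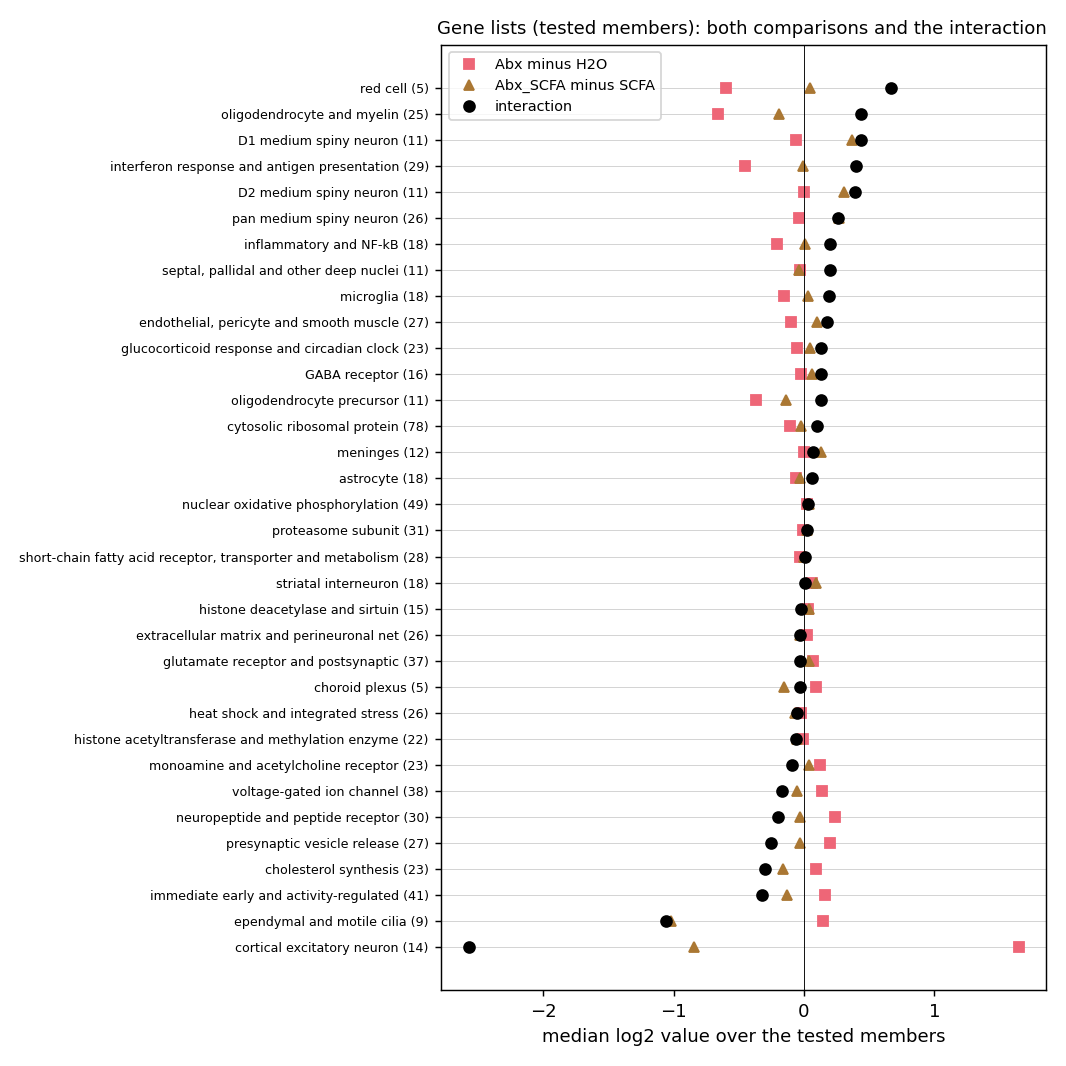
Median log2 value over the tested members of each gene list (number in brackets) in Abx minus H2O (squares), Abx_SCFA minus SCFA (triangles) and the interaction (circles). The cortical list lies at -2.57, and the red cell and myelin lists at 0.67 and 0.44.

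Genes of the interferon response and antigen presentation were positive in 26 of 29 (median 0.40), with 7 positive members at an unadjusted p below 0.05 (24.1% of the list in either direction, against 7.85% of all genes). The median was -0.45 in Abx minus H2O and -0.01 in Abx_SCFA minus SCFA. RT1-A2, a class I histocompatibility gene of the rat, stood at 73.9, 64.7, 52.7, 49.2 and 58.5 CPM in H2O and at 35.1, 26.4, 26.6 and 47.7 in Abx, without overlap. In SCFA it ran from 39 to 72.8 and in Abx_SCFA from 42.6 to 67.3, and the interaction was 0.84 ± 0.278. The class II genes RT1-Ba (2.99 ± 0.961) and RT1-Da (2.34 ± 0.806) were highest in H2O replicates 1 and 5, at 16 and 9.74 CPM and at 20.9 and 22.5 CPM, and RT1 genes are close copies whose reads may be split between them. H2O replicate 1 also had the highest list score, 4, against 2.35 to 3.28 in the other H2O libraries. Without it the median was 0.06, with 19 of 29 positive and 6 at an unadjusted p below 0.05.

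Interferon-responsive genes often carry an interferon-stimulated response element near their start, and 3 members with it are shown to give that context. The motif searched was GAAA, any 2 bases, then GAAA, on both strands of the 250 bases before each start in the RefSeq promoter table (GRCr8, a later build than the Rnor_6.0 of the counts). It was found in 1140 of 33469 starts (3.41%) and in 12 of the 25 members with a sequence (48%). These shares are of unlike units, since a member counts if any of its starts holds the motif. Members with it had a median interaction of 0.38 and those without it 0.61. The 3 shown were chosen with their values known, and all lie above the median of 0.38. Ifi27 (-0.02 ± 0.141) and Ifi44 (0.04 ± 0.183) also carry the motif. A match is a description of letters only. Capitals mark it in 60 bases on the gene's own strand for Gbp2, a guanylate-binding protein (chr2:234005667-234005726, + strand, interaction 1.60 ± 0.842), Tap1, a peptide transporter (chr20:4668630-4668689, - strand, 1.08 ± 0.478), and B2m, the class I light chain (chr3:129549155-129549214, + strand, 0.43 ± 0.175).
Gbp2: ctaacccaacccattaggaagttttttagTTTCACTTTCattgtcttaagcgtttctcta
Tap1: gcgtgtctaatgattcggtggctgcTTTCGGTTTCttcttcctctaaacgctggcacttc
B2m: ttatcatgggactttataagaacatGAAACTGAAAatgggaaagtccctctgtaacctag

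Inflammatory genes were positive in 15 of 18 (median 0.20), with 3 at an unadjusted p below 0.05 (16.7%, against 7.85% of all genes). These were Lcn2, an iron-sequestering lipocalin (1.5 ± 0.525), Tgfb1, a regulatory cytokine (0.33 ± 0.131), and Casp1, the inflammasome protease (0.64 ± 0.27). Tgfb1 stood at 13.8, 14.2, 13.4, 14.4 and 14.1 CPM in H2O and at 13.3, 10.1, 9.4 and 12.5 in Abx, without overlap, and overlapped between SCFA (12.2 to 15.2) and Abx_SCFA (12.2 to 14.8). Lcn2 and Casp1 were highest in H2O replicate 1, at 5.96 and 8.68 CPM.

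Immediate early and activity-regulated genes were negative in 32 of 41 (median -0.32, from 0.16 without fatty acids and -0.13 with them). At an unadjusted p below 0.05 were 6 of them (14.6% of the list, against 7.85% of all genes). Bdnf, a neurotrophin, gave -3.87 ± 1.39, with 0.105, 0.906, 0.11, 0.361 and 6.05 CPM in H2O and 25.3, 1.28, 4.56 and 8.6 in Abx. The SCFA libraries spanned 1.29 to 41.1 and the Abx_SCFA libraries 3.8 to 11.5, so both comparisons overlapped. The transcription factor genes Fos and Egr1 gave -0.74 ± 0.349 and -0.50 ± 0.269, and Inhba and Klf10 gave -0.54 ± 0.181 and -0.79 ± 0.309. When the cortical score entered the model the list's median was 0.06, 30 of 41 members were positive, and Fos and Egr1 turned positive at 0.08 and 0.02. In that fit Bdnf stood at -0.11, Inhba at -0.28 and Klf10 at -0.10. Without SCFA replicates 2 and 5 Bdnf stood at -2.33, and without H2O replicate 5 at -5.9.

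Many activity-regulated genes hold a cyclic AMP response element, the site of the factor CREB. Its full form TGACGTCA, which reads the same on both strands, was found in the 250 bases before 531 of the 33469 starts (1.59%) and in 9 of the 33 members with a sequence (27.3%). Here too a member counts if any of its starts holds the motif. The median interaction was -0.32 in members with it and -0.21 in those without. Stretches of 60 bases are shown for a pair with negative values, Btg2, an antiproliferative gene (chr13:48087858-48087917, - strand, -1.03 ± 0.405), and Dusp1, a MAP kinase phosphatase (chr10:17184703-17184762, + strand, -0.54 ± 0.289), and for Vgf, a neuropeptide precursor (chr12:25277077-25277136, - strand), which was near 0 (0.03 ± 0.163). They were chosen with these values known, and capitals mark the motif.
Btg2: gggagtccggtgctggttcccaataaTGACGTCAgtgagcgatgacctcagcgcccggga
Dusp1: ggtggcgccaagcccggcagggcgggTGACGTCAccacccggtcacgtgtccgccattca
Vgf: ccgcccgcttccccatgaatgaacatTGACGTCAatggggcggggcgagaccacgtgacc

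Voltage-gated ion channel genes had 13 of 38 members at an unadjusted p below 0.05 (34.2%, against 7.85% of all genes), 2 positive and 11 negative, around a median of -0.17 (-0.11 without SCFA replicate 5). Kcns2, a modulatory potassium channel subunit, gave 0.37 ± 0.112. The sodium channel gene Scn1a, at 56 to 76.2 CPM in Abx and 49.8 to 65.2 in H2O, gave -0.43 ± 0.141, and these groups overlapped. With the cortical covariate 3 of the 38 were at an unadjusted p below 0.05. Presynaptic genes were negative in 21 of 27 (median -0.25, and -0.15 without SCFA replicate 5), among them the active zone gene Bsn (-0.42 ± 0.186) and the vesicle gene Sv2a (-0.25 ± 0.114). Their median with the cortical covariate was 0.09. Neuropeptide and receptor genes had a median of -0.20 (-0.09 without SCFA replicate 5 and -0.31 without H2O replicate 2), with Npy2r, a neuropeptide Y receptor, at 0.77 ± 0.245, and monoamine and acetylcholine receptor genes had a median of -0.09.

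All 23 tested genes of cholesterol synthesis and uptake were negative (median -0.30, from 0.09 without fatty acids and -0.16 with them). At an unadjusted p below 0.05 were 4 of them (17.4%, against 7.85% of all genes). Sqle, squalene epoxidase, stood at 49.2, 52.8, 50.6, 58 and 57 CPM in H2O and at 60.1, 52, 47.5 and 65.4 in Abx. The SCFA libraries spanned 55.9 to 87.7 and the Abx_SCFA libraries 52 to 62.8, with overlap in both comparisons and an interaction of -0.36 ± 0.153. The list score was highest in SCFA replicates 2 and 5, at 5.81 in each, the libraries with the highest cortical scores. With the cortical covariate the median was 0.01, with 14 of 23 positive, and without SCFA replicates 2 and 5 it was -0.19.

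**Figure D5:**
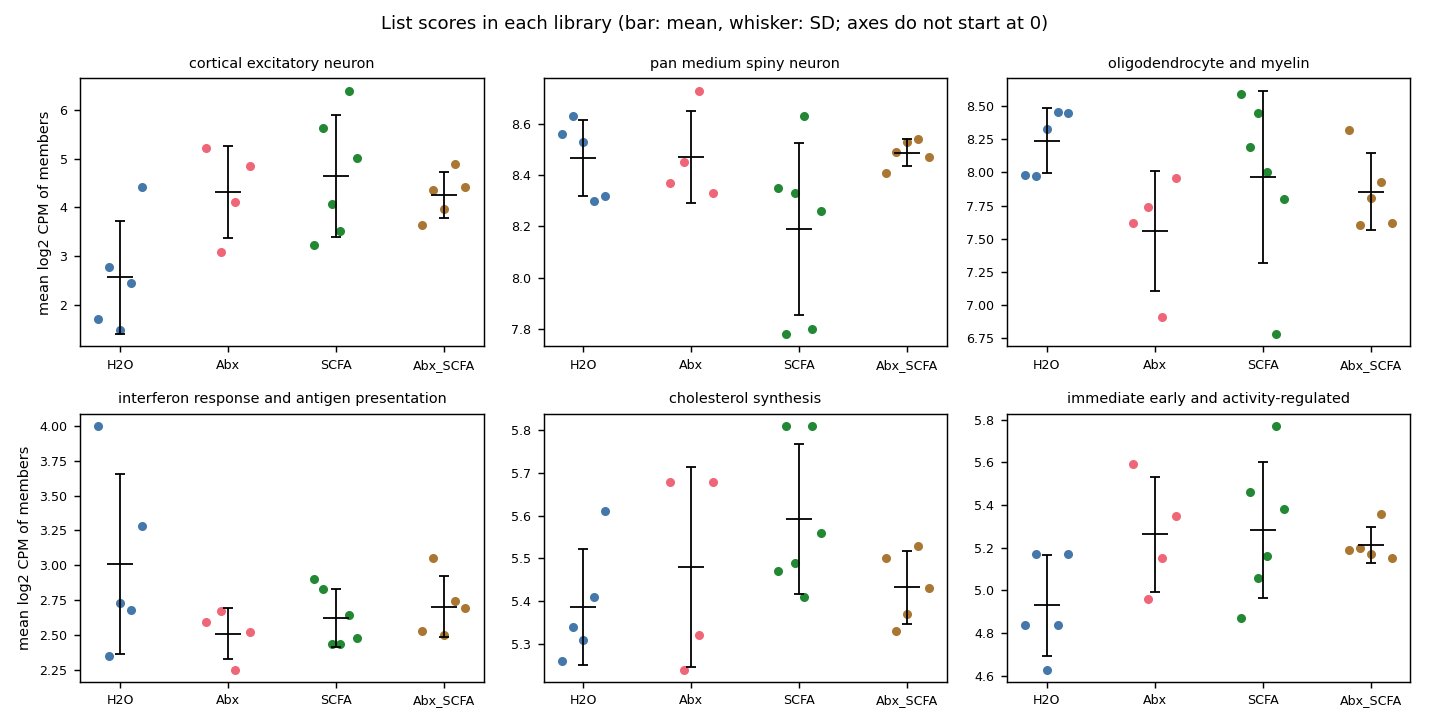
Mean log2 CPM (y axis, not from 0) of the tested members of 6 gene lists in each library, by group, with the mean as a bar and the SD as a whisker. H2O replicate 1 is the high point of the interferon list at 4, and SCFA replicates 2 and 5 are high in the cortical and cholesterol lists and low in the medium spiny neuron list.

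Genes that handle short-chain fatty acids themselves (receptors, transporters and metabolic enzymes) were split, with 18 of 28 positive and a median of 0.01. A positive and a negative member were at an unadjusted p below 0.05 (7.14%, against 7.85% of all genes). Slc16a1, the monocarboxylate transporter that carries butyrate and lactate, stood at 65.6, 83.3, 77.7, 90.1 and 85.8 CPM in H2O and at 63.8, 62, 57.8 and 73.5 in Abx. The SCFA libraries spanned 55.4 to 84.7 and the Abx_SCFA libraries 63.4 to 84.3. The groups overlapped in both comparisons, and the interaction was 0.37 ± 0.156. Acat2, a thiolase of acetyl-CoA metabolism, gave -0.60 ± 0.251.

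Histone deacetylase and sirtuin genes showed 0 of 15 at an unadjusted p below 0.05 (0%, against 7.85% of all genes), with a median of -0.02. In so short a list a count of 0 lies near that share. Hdac1 and Hdac2, class I deacetylases, gave -0.12 ± 0.127 and 0.03 ± 0.0902, and Hdac4 had the smallest p of the list (-0.33 ± 0.179). Among 22 histone acetyltransferase and methylation genes Kdm6b was the member at an unadjusted p below 0.05 (4.55%, against 7.85% of all genes). The median of these genes was -0.06. The DNA methyltransferase gene Dnmt3a stood at 70.4 to 72.6 CPM in Abx, above 57.5 to 67.5 in H2O, and gave -0.28 ± 0.137. These are transcript levels and say nothing of enzyme activity or of histone marks.

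Clock and glucocorticoid genes had 2 positive and 2 negative of 23 at an unadjusted p below 0.05 (17.4%, against 7.85% of all genes). The clock activator Arntl gave 0.33 ± 0.108 and the clock repressor Per2 gave -0.53 ± 0.181. Arntl at 45 to 48.6 CPM in Abx lay below 49.4 to 57.4 in H2O, and Per2 overlapped. Zbtb16, a glucocorticoid-induced transcription factor, gave -1.39 ± 0.521. The hour at which tissue was taken is not given in the sources used here.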

How the data were processed

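The deposited values are counts per gene symbol in 20 polyA RNA libraries, used as the authors deposited them; the cDNA was made with a SMARTer kit per the labels' protocols. The submitters' processing notes name FastQC 0.11.6, STAR 2.4.0, limma and Rnor_6.0. The sources used here name no counting tool, annotation or strand setting. Groups came from the labels. One edgeR 4.0.16 model (R 4.3.3) of 4 groups was fitted with TMM scaling, filterByExpr (minimum count 10, minimum total 15) and robust quasi-likelihood, leaving 16 residual degrees of freedom, with Benjamini-Hochberg adjustment over 12846 genes. CPM are TMM-scaled. DESeq2 1.42.0 and limma 3.58.1 were alternatives, beside other scalings, filters, covariates and leaving out libraries. The scripts were tested on simulated data. Libraries differed pairwise beyond counting noise (chi-square per gene at least 6.4 in 190 pairs). A count of 0 allows up to 0.117 to 0.171 CPM, for counting error only.

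Named genes were the 12 smallest p in each direction (mean of at least 1 CPM, no provisional symbol), the 3 smallest p of each list, and a fixed set of marker and signalling genes; the text gives most of these, and a few are not reported here. The interaction, the lists and these rules were chosen with earlier results of these data known, and the promoter examples after their values were seen. Of 17296 symbols, 15156 were current in the RefSeq table and 16952 current or synonyms.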

Additional observations from a re-analysis of the deposited data

Results flagged for a closer look

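Within groups of 4 to 6 libraries, 12 of the 232 sets of values tested held 1 library far from the others by Dixon's criterion, which chance alone flags in about 1 in 20 groups. Among genes, Mb21d2 was lowest in Abx replicate 1 (55.8 CPM, the nearest 60.9). SCFA replicate 5 was highest for MGC116197 (11.8, nearest 8.26), Mst1r (5.3, nearest 2.68) and Slc4a8 (44.9, nearest 27.3), and it also had the highest cortical score, 6.39. Slc4a8 was highest in Abx_SCFA replicate 2 (24.6, nearest 20.9), and Sidt1 in H2O replicate 5 (16.5, nearest 4.73), the H2O library with the highest cortical score.

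Among list scores (mean log2 CPM), the immediate early list was highest in Abx_SCFA replicate 4 (5.36, nearest 5.2). The presynaptic list was lowest in Abx replicate 2 (7.76, nearest 8.01) and highest in Abx_SCFA replicate 4 (8.02, nearest 7.86). The clock and glucocorticoid list was highest in H2O replicate 3 (6.31, nearest 6.11) and in Abx replicate 2 (6.16, nearest 6.09), and the heat shock list in SCFA replicate 2 (6.56, nearest 6.37).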

How the results depend on the processing

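The count of 0 called genes held under every alternative run except leaving out H2O replicate 4 and Abx_SCFA replicate 5, libraries chosen after seeing the data, where 1 gene, Cend1, was called (3.80 on the log2 scale). Of the genes at an unadjusted p below 0.05 (1008 with all libraries), the number was 651 with only the 3-hundred series for H2O and Abx, 448 with the cortical score as a covariate and 498 without SCFA replicates 2 and 5, the last also chosen after seeing the data. Leaving out each library in turn gave 695 (without SCFA replicate 5) to 1423 (without H2O replicate 5).

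Single genes that changed sign were the following, and the cause was not tested. With the cortical covariate, Vip stood at 0.40, Dlk1 at -0.09, Slc4a5 at -0.44, Dlgap1 at 0.10, Gabbr2 at 0.14, Stx1a at 0.32, Sstr1 at 0.01, Chrm3 at 0.17, Htr1a at 0.09, Hdac9 at 0.29, Atf4 at 0.07, Hapln4 at 0.16, Fos at 0.08 and Egr1 at 0.02. Slc4a5 (0.20 with all libraries) was -0.15 in limma-voom, -0.02 with the number series as a covariate and -0.22 without H2O replicate 4 and Abx_SCFA replicate 5, and ran from -0.32 to 0.63 on leaving out single libraries. Gfap was 0 with quality weights and -0.03 without H2O replicate 5 and SCFA replicates 2 and 5, and Hdac2 was -0.02 with only the 3-hundred series and ran from 0 to 0.07 on leaving out single libraries, turning sign, at 0 after rounding, without Abx_SCFA replicate 2. No paired analysis was possible because every rat has a different number in the labels, and the replicate numbers used here only follow accession order. With the number series as a covariate 1013 genes were at an unadjusted p below 0.05. At 4 to 6 libraries a group and a median SE of 0.145, smaller interactions are hard to tell from 0.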

Other observations

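Gene groups of basic cell machinery had small interactions. Cytosolic ribosomal protein genes were positive in 67 of 78 (median 0.10), with 3 at an unadjusted p below 0.05 (3.85%, against 7.85% of all genes) and 0 called. Rpl30 was one of them (0.39 ± 0.14), and Rps9, at 1.35 CPM on average, gave 0.90 ± 0.293 with every Abx_SCFA library above every SCFA library. Nuclear oxidative phosphorylation genes had a median of 0.03 and proteasome genes 0.02. At an unadjusted p below 0.05 were 0 of 49 and 0 of 31, against 7.85% of all genes. Heat shock and integrated stress genes had a median of -0.05, and Ddit3, a stress-induced transcription factor, gave -0.36 ± 0.138.

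Glutamate receptor and postsynaptic genes had a median of -0.03, with Grm2, a metabotropic receptor, at -2.47 ± 0.836 and Gria3, an AMPA receptor subunit, at -0.40 ± 0.159. GABA receptor genes had a median of 0.13, with Gabbr2 at -1.27 ± 0.508. Extracellular matrix and perineuronal net genes had a median of -0.03, with the matrix protein gene Tnc at -1.35 ± 0.585 and the link protein gene Hapln4 at -1.02 ± 0.467. With the cortical score as a covariate Grm2 stood at -0.20, Gria3 at -0.09, Gabbr2 at 0.14, Tnc at -0.29 and Hapln4 at 0.16. SCFA replicate 5 had the highest cortical score of the series, 6.39, and its part in these values was not tested further.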
